A study of Arabidopsis thaliana with 9 samples.

Results

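A set of 10 genes that build, open and degrade leaf starch was followed through leaves sprayed with a fungus, mock-treated leaves and untreated leaves of Arabidopsis thaliana. They were taken by locus: ADG1 (AT5G48300), APL3 (AT4G39210) and GBSS1 (AT1G32900) of synthesis, SEX1 (AT1G10760) of glucan phosphorylation, the beta-amylase family genes BAM1 (AT3G23920), BAM3 (AT4G17090), BAM5 (AT4G15210) and BAM9 (AT5G18670, also BMY3), and the glucanotransferase genes DPE1 (AT5G64860) and DPE2 (AT2G40840). These are 10 of 33610 genes listed in the count files, and all 10 passed the filter on low counts. They were chosen by their measured levels and changes between these same groups, so these values are a description without a test.

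All plants were Col-0, the standard laboratory accession, grown on soil for 5 to 6 weeks at 22 °C under 8 h days, and messenger RNA was sequenced from rosette leaves. The Alternaria leaves were sprayed with 1000000 spores per ml of the necrotrophic fungus Alternaria brassicicola in 0.01% Silwet L-77 and harvested 3 days later. Mock leaves came from mock-treated plants and untreated leaves from plants without treatment. Each group held 3 libraries, called biological replicates in the labels, which do not say how many plants each library holds. The labels do not give what the mock treatment was, the day of harvest of mock and untreated leaves, or the hour of any harvest.

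In leaves, starch is laid down in chloroplasts by day and broken down at night. ADP-glucose pyrophosphorylase makes the sugar donor, starch synthases and branching enzymes build the granule, and granule-bound synthase makes amylose. At night, glucan water dikinases phosphorylate the granule surface, beta-amylases release maltose, and maltose leaves the chloroplast to be converted in the cytosol. Transcripts of many of these genes are known to cycle over the day under the circadian clock.

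The libraries held 22713147 to 36061529 reads assigned to genes. Levels are given in counts per 1000000 assigned reads (CPM), scaled between libraries, and changes as log2 ratios with their standard error (SE) from 1 edgeR fit over 22019 tested genes. Replicates of a group were not copies of each other, and untreated replicate 1 stood apart from the other untreated libraries on principal component 3 (4.04% of variance). The leaf identity of the samples was plain from 4 photosynthesis markers, which summed to 9651 to 10694 CPM in Alternaria, 17130 to 18002 CPM in mock and 20910 to 21919 CPM in untreated leaves. Of 5 root markers, PYK10 lay between 42.4 and 126 CPM over the 9 libraries, COBL9, PRP3 and LRX1 stayed below 1 CPM, and EXPA7 did not pass the filter. In whole-leaf RNA, fewer cells of a type and less RNA per cell cannot be told apart.

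Because several of these genes are known as clock outputs, the 300 bases around each gene's annotated start (280 before it and 20 from it on, build TAIR10.1) were searched on both strands for 4 motifs. These were the evening element AAAATATCT and the CCA1-binding site AAAAATCT, both known as sites of clock MYB factors, the G-box CACGTG, and the W-box core TTGAC known from WRKY factors. The 4 upstream sequences below are examples picked after levels had been seen. They are printed on the gene's own strand from RefSeq's TAIR10.1 with motifs in capitals. Other windows also hold motifs. The DPE1 window has G-boxes at −35 to −30 and −24 to −19 from the start, and a W-box core. SEX1 (chr1:3590909-3591208, minus strand) holds the evening element across its start and a W-box core. DPE2 (chr2:17044652-17044951, plus strand) holds the CCA1-binding site in reverse, in a window that overlaps the neighbouring gene AT2G40830. BAM5 (chr4:8669507-8669806, minus strand) holds a G-box, and BAM9 (chr5:6225676-6225975, plus strand) holds a G-box and 2 W-box cores.
SEX1: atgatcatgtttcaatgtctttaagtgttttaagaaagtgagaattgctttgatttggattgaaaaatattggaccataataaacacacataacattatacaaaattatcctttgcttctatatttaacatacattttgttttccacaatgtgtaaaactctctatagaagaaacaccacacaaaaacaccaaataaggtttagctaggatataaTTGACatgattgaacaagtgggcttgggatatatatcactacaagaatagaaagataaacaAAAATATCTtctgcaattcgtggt
DPE2: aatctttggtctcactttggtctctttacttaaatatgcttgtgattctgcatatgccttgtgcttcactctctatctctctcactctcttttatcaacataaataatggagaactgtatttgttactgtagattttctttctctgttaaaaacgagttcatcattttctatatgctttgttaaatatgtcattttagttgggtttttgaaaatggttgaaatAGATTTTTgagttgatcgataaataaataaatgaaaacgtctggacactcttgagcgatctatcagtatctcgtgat
BAM5: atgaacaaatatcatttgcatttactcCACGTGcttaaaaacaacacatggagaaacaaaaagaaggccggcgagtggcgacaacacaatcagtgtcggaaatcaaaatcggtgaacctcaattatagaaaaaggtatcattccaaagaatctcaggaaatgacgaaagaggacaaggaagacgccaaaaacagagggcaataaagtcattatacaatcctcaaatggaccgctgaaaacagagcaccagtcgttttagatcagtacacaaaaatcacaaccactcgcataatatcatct
BAM9: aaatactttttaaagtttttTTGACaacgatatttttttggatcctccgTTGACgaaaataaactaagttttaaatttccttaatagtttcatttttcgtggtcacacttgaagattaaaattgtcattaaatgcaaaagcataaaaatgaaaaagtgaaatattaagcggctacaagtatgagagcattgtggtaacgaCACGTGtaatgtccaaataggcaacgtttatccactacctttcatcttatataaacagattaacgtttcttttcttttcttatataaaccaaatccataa

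An evening element occurred in 1 of the 10 windows and in 2.87% of 27443 windows of the same length over the genome. This match, in SEX1, runs from −4 to 5 around the start. It is complete only because the window was extended past the start after the sequences were seen, so nothing is read from its count. The CCA1-binding site occurred in 1 of 10 and in 7.86%, the G-box in 3 of 10 (BAM5, BAM9 and DPE1) and in 7.38%, and the W-box core in 5 of 10 and in 50.4%. GBSS1, BAM3 and APL3 held none of these letters in this window. The motifs were chosen after levels had been seen, and a match is a run of letters, not a shown site.

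The 10 genes did not follow 1 pattern. Mean levels were highest in mock leaves for 5 of them (ADG1, APL3, SEX1, BAM5 and DPE2), in untreated leaves for 4 (GBSS1, BAM1, BAM3 and BAM9) and in Alternaria leaves for DPE1. Together they summed to 1588 to 1644 CPM in Alternaria, 2383 to 2580 CPM in mock and 4000 to 5017 CPM in untreated leaves, and GBSS1 and BAM3 made up most of that difference.

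**Figure D1:**
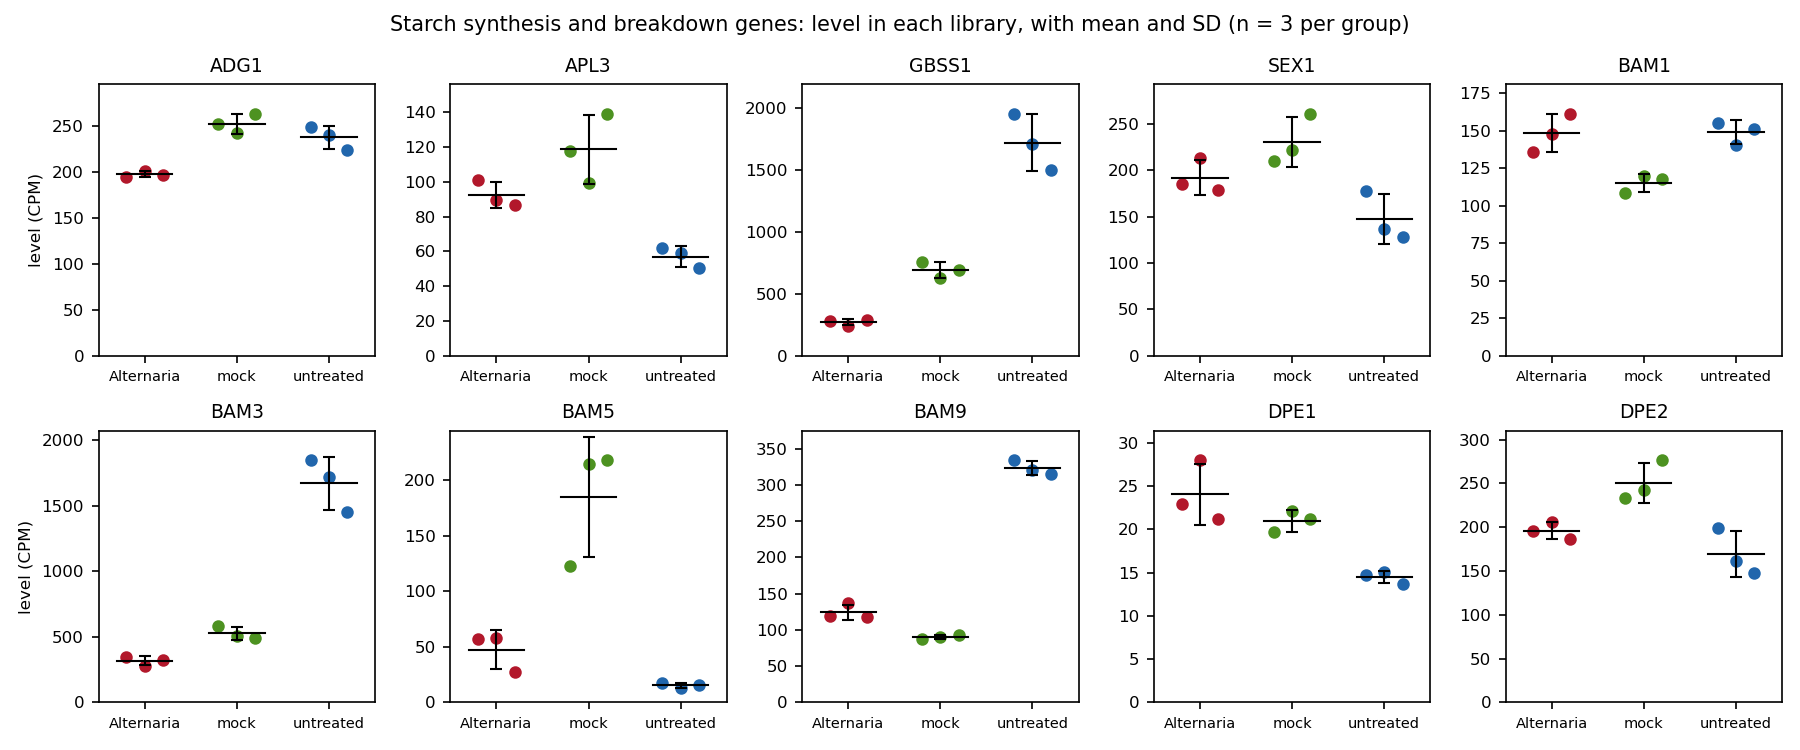
Level in CPM (linear axes from 0, one scale per gene) of the 10 starch genes in each library, with group mean (bar) and SD, for Alternaria, mock and untreated leaves (n = 3 each). GBSS1 and BAM3 step down between untreated, mock and Alternaria leaves, BAM9 is lowest in mock leaves, and BAM5 is highest in mock leaves at 123 to 218 CPM.

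ADG1 encodes the catalytic small subunit of ADP-glucose pyrophosphorylase, which makes the sugar donor for starch. Its level was 194, 201 and 197 CPM in the Alternaria libraries, 252, 242 and 263 CPM in the mock libraries and 249, 240 and 224 CPM in the untreated libraries. All Alternaria libraries lay below all mock and all untreated ones, while mock and untreated overlapped. The log2 change was −0.35 ± 0.07 for Alternaria against mock, −0.27 ± 0.07 for Alternaria against untreated and 0.09 ± 0.07 for mock against untreated (± SE). The last value was 0.049 without untreated replicate 3.

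APL3, a large subunit of the same enzyme known to be induced by sugars, went another way. It stood at 101, 89.4 and 86.6 CPM in Alternaria leaves, 118, 99.6 and 139 CPM in mock leaves and 61.8, 58.9 and 50.5 CPM in untreated leaves. Both treated groups lay above every untreated library, and they overlapped each other. The log2 change was 0.70 ± 0.12 for Alternaria against untreated and 1.06 ± 0.12 for mock against untreated, and −0.36 ± 0.12 for Alternaria against mock. The last value moved to −0.23 without mock replicate 3, the highest mock library. APL1, the main large subunit of leaves and not among the 10 genes, moved differently, so the ratio of APL3 to APL1 per length was 0.810, 0.687 and 0.697 in Alternaria, 0.612, 0.490 and 0.713 in mock and 0.318, 0.319 and 0.288 in untreated leaves. All 6 Alternaria and mock libraries had a higher ratio than any untreated one.

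GBSS1, the granule-bound synthase that makes amylose, had the second widest range of the 10 genes. Its level was 284, 245 and 286 CPM in Alternaria leaves, 758, 627 and 697 CPM in mock leaves and 1958, 1710 and 1501 CPM in untreated leaves. No 2 groups overlapped, with untreated highest and Alternaria lowest. Alternaria leaves held 0.392 times the mock level (log2 −1.35 ± 0.11) and 0.158 times the untreated level (log2 −2.66 ± 0.11). Mock leaves held 0.403 times the untreated level (log2 −1.31 ± 0.11). Set against ADG1 per length, GBSS1 stood at 1.21, 1.01 and 1.20 in Alternaria, 2.50, 2.15 and 2.19 in mock and 6.51, 5.91 and 5.55 in untreated leaves. This balance within synthesis did not overlap between any groups.

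SEX1 encodes glucan, water dikinase, which phosphorylates amylopectin at the granule surface and so opens it to amylases. Its level was 185, 213 and 178 CPM in Alternaria leaves, 209, 221 and 261 CPM in mock leaves and 178, 136 and 127 CPM in untreated leaves. The Alternaria libraries overlapped the mock ones (log2 −0.26 ± 0.12). They lay just above untreated (0.38 ± 0.12), Alternaria replicate 3 and untreated replicate 1 both rounding to 178 CPM. Mock lay above untreated without overlap (0.65 ± 0.13). Without untreated replicate 1, the highest of its group, the last 2 changes were 0.55 and 0.81, and without untreated replicate 3 they were 0.29 and 0.56. Without mock replicate 3 the change of Alternaria against mock was −0.16.

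BAM3 encodes the main beta-amylase of leaf chloroplasts at night. Its level was 347, 280 and 326 CPM in Alternaria leaves, 582, 505 and 493 CPM in mock leaves and 1849, 1718 and 1453 CPM in untreated leaves. As for GBSS1, no groups overlapped and the order was untreated, mock, Alternaria from high to low. Alternaria leaves held 0.603 times the mock level (log2 −0.73 ± 0.11) and 0.190 times the untreated level (log2 −2.40 ± 0.11), and mock leaves held 0.315 times the untreated level (log2 −1.67 ± 0.11). BAM3 overlaps AT4G17085 on the other strand by 13 bases and the non-coding gene AT4G06665 by 518 bases. Whether counting used strand is not given in the sources used here, so reads of such partners cannot be told apart from the gene's own. AT4G17085 was listed at 0.885 CPM or less, and AT4G06665 was not analysed here.

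BAM9, a plastid family member without catalytic activity, was lowest in mock leaves. It stood at 119, 137 and 117 CPM in Alternaria leaves, 87.7, 90.2 and 93.2 CPM in mock leaves and 334, 321 and 315 CPM in untreated leaves. No groups overlapped: log2 0.46 ± 0.07 for Alternaria against mock, −1.38 ± 0.07 for Alternaria against untreated and −1.84 ± 0.08 for mock against untreated. BAM9 shares 33 bases with AT5G18680 on the other strand, a gene at 18.0 to 30.9 CPM over the 9 libraries. BAM3 and BAM9 thus stood in different balance: the ratio of BAM3 to BAM9 per length was 2.76, 1.94 and 2.62 in Alternaria leaves, 6.28, 5.29 and 5.01 in mock leaves and 5.23, 5.06 and 4.37 in untreated leaves. The Alternaria ratios lay below all others, and mock and untreated overlapped.

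BAM1, a chloroplast beta-amylase known for starch breakdown in guard cells and under osmotic stress, varied little. Its level was 136, 148 and 162 CPM in Alternaria leaves, 108, 120 and 118 CPM in mock leaves and 156, 140 and 152 CPM in untreated leaves. Mock libraries lay below all others, and Alternaria and untreated libraries overlapped. The log2 change was 0.36 ± 0.08 for Alternaria against mock, −0.01 ± 0.08 for Alternaria against untreated and −0.37 ± 0.08 for mock against untreated. The value near 0 took either sign when single libraries were left out, between −0.063 and 0.059. Of 6 guard cell markers, 1 was higher and 2 lower at the threshold in Alternaria against mock, 1 higher and 4 lower in Alternaria against untreated, and 0 passed in mock against untreated. They summed to 79.6 to 84.8 CPM in Alternaria, 85.0 to 86.3 CPM in mock and 89.3 to 104 CPM in untreated leaves, and none was at 0 in any group. Over all tested genes, 55.6% passed in Alternaria against mock, 64.9% in Alternaria against untreated and 29.3% in mock against untreated. The part of guard cell content in the BAM1 values was not tested.

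BAM5 encodes a beta-amylase outside the chloroplast, known from phloem and from sugar-fed leaves, and had the widest range of the 10 genes. Its level was 57.5, 57.7 and 27.4 CPM in Alternaria leaves, 123, 214 and 218 CPM in mock leaves and 17.2, 13.1 and 15.6 CPM in untreated leaves. No groups overlapped, although Alternaria replicate 3 lay well below the other Alternaria libraries and mock replicate 1 below the other mock libraries. Mock leaves held 12.1 times the untreated level (log2 3.60 ± 0.29). Alternaria leaves held 3.12 times the untreated level (log2 1.64 ± 0.28) and 0.257 times the mock level (log2 −1.96 ± 0.26). Leaving out each library in turn kept these changes within 3.47 to 3.84, 1.48 to 1.92 and −2.20 to −1.68. In the authors' deposited DESeq2 table of the same libraries mock against untreated is 3.01 ± 0.241, by another method than the edgeR fit. Of 8 phloem markers, 0 were higher and 5 lower at the threshold in mock against untreated, 2 higher and 4 lower in Alternaria against untreated, and 3 higher and 2 lower in Alternaria against mock. They summed to 585 to 606 CPM in Alternaria, 479 to 595 CPM in mock and 693 to 765 CPM in untreated leaves, with none at 0. The phloem sums of mock leaves lay below all untreated ones and overlapped those of Alternaria leaves. The marker counts stand beside 29.3% of all tested genes in mock against untreated, 64.9% in Alternaria against untreated and 55.6% in Alternaria against mock. The part of phloem content in the BAM5 values was not tested.

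DPE1 encodes the plastid disproportionating enzyme, which works on the short glucans left by beta-amylases. Its level was 23.0, 28.0 and 21.2 CPM in Alternaria leaves, 19.6, 22.1 and 21.2 CPM in mock leaves and 14.7, 15.0 and 13.6 CPM in untreated leaves. Alternaria and mock overlapped (log2 0.20 ± 0.10), and both lay above untreated, by 0.73 ± 0.11 and 0.53 ± 0.11. The change against mock was 0.059 without Alternaria replicate 2, the highest Alternaria library.

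DPE2, the cytosolic glucanotransferase that takes up exported maltose, stood at 196, 206 and 186 CPM in Alternaria leaves, 233, 242 and 277 CPM in mock leaves and 199, 161 and 148 CPM in untreated leaves. Mock lay above both other groups, which overlapped. The log2 change was −0.35 ± 0.10 for Alternaria against mock, 0.21 ± 0.11 for Alternaria against untreated and 0.56 ± 0.11 for mock against untreated. Without untreated replicate 1 the last 2 values were 0.35 and 0.70, and without untreated replicate 3 they were 0.13 and 0.48.

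**Figure D2:**
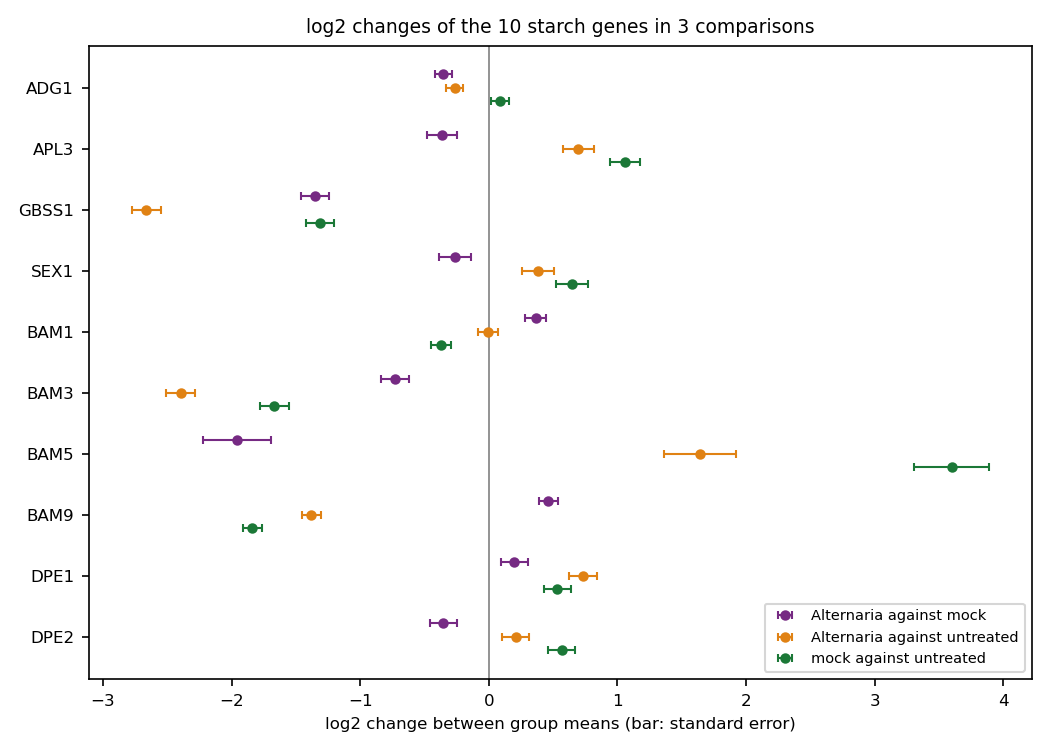
Log2 change of each starch gene in the 3 comparisons (points) with its standard error (bars), from the edgeR fit over all 9 libraries. GBSS1 and BAM3 lie left of 0 in every comparison, BAM5 reaches 3.60 in mock against untreated, and BAM9 is at 0.46 against mock and −1.38 against untreated in Alternaria leaves.

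At an adjusted p under 0.05, 8 of the 10 genes were past the threshold in Alternaria against mock (2 higher, 6 lower), where 55.6% of all tested genes were. In Alternaria against untreated it was 8 of 10 (4 higher, 4 lower), beside 64.9% of all genes, and in mock against untreated 9 of 10 (5 higher, 4 lower), beside 29.3%. The genes were chosen with these values in view, so nothing is read from the counts. Their median log2 change was −0.35, 0.10 and 0.31 in these comparisons, in this order, beside −0.02, −0.04 and −0.01 over all tested genes. Upper-quartile scaling moved the median of all genes by −0.17 in Alternaria against mock and −0.20 in Alternaria against untreated, and the starch genes with it: DPE1 against mock was then 0.02 and DPE2 against untreated 0.02. Under that scaling 0 of the calls on starch genes turned their direction.

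Levels of different genes were compared as CPM per kilobase of the longest annotated transcript. In Alternaria leaves BAM3 led at 151 and GBSS1 followed at 119. In mock leaves GBSS1 led at 303 ± 28.6 and BAM3 followed at 251 ± 23.0. In untreated leaves BAM3 stood at 796 ± 95.9 and GBSS1 at 752 ± 99.8 (SD, n = 3). The ranges of both genes overlapped in mock and in untreated leaves. Within each library, GBSS1 was the higher in mock leaves and BAM3 the higher in untreated leaves (879, 817 and 691 against 854, 746 and 655). BAM5 took place 9 of 10 in Alternaria leaves at 19.3, place 4 in mock leaves at 75.2 and the last place in untreated leaves at 6.23, next to DPE1 at 7.15. BAM9 took place 4 in Alternaria leaves at 62.5, place 9 in mock leaves at 45.4 and place 3 in untreated leaves at 163.

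Across the 9 beta-amylase genes of the genome, the summed level per kilobase was 350, 331 and 337 in the Alternaria libraries, 468, 473 and 476 in the mock libraries and 1180, 1096 and 971 in the untreated libraries. BAM3 held 44.4% ± 3.75 of that sum in Alternaria, 53.1% ± 5.33 in mock and 73.4% ± 1.92 in untreated leaves (SD, n = 3 each). BAM1 held 17.4% ± 1.80, 9.70% ± 0.449 and 5.51% ± 0.604 in the same groups, although its own level in Alternaria and untreated leaves overlapped. BAM5 held 5.69% ± 2.08 in Alternaria, 15.9% ± 4.53 in mock and 0.578% ± 0.0842 in untreated leaves. Of the 9 genes, only BAM8 had shares that overlapped between groups (Alternaria and mock), so such separation is not particular to BAM1, BAM3 and BAM5. A share moves when any of the 9 genes does.

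**Figure D3:**
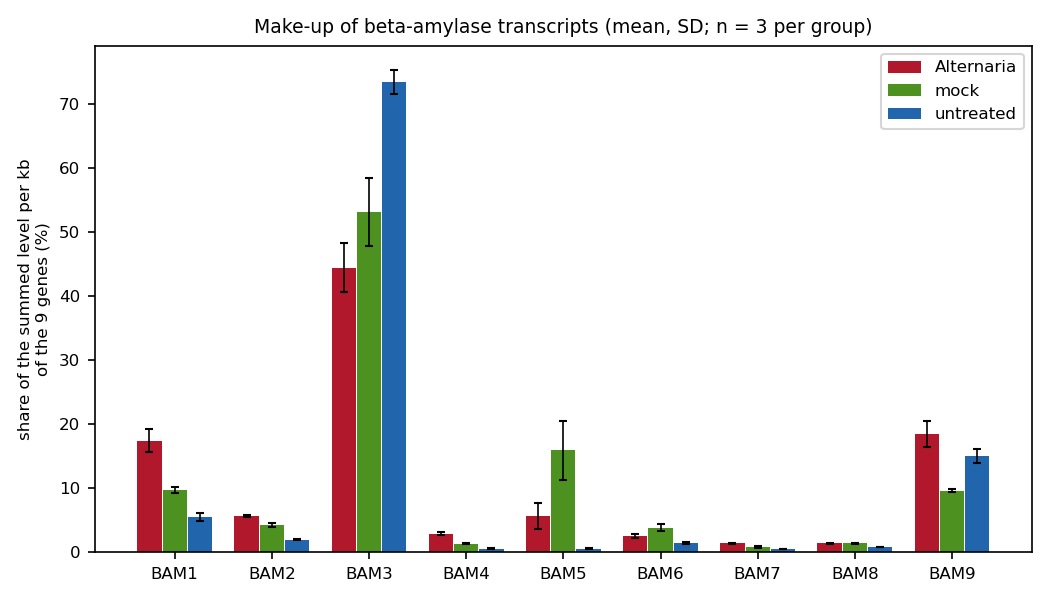
Share of each of the 9 beta-amylase genes in their summed level per kilobase, as group mean (bar) and SD in percent, for Alternaria, mock and untreated leaves (n = 3 each). BAM3 holds 44.4% in Alternaria, 53.1% in mock and 73.4% in untreated leaves, and BAM5 is at 15.9% in mock leaves.

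Among the 10 genes, SEX1 and DPE2 had the most alike profile over the 9 libraries. Likeness was measured as the root mean square difference of log2 CPM, each gene centred on its own mean, and was 0.0829 for this pair. The ratio of SEX1 to DPE2 per length stayed between 0.571 and 0.699 in all 9 libraries. The untreated ratios, up to 0.604, all lay below those of mock and Alternaria leaves, which began at 0.607. SEX1 and DPE2 act at opposite ends of the path, at the granule and in the cytosol. GBSS1 and BAM3 were 0.260 apart, and BAM3 and BAM5 were farthest apart at 2.26.

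BAM3 lay 0.166 from the morning clock gene CCA1 and 0.184 from LHY, closer than to any of the other 9 starch genes. GBSS1 lay 0.237 from CCA1, 0.260 from BAM3 and 0.321 from LHY. Genes outside the clock list lay nearer still to BAM3, among them CP1 (AT5G49480) at 0.0873. CCA1 averaged 124 ± 10.6 CPM in Alternaria, 225 ± 5.46 CPM in mock and 588 ± 60.3 CPM in untreated leaves, and LHY 165 ± 11.2, 263 ± 14.2 and 701 ± 52.5 CPM. The evening gene TOC1 averaged 31.5 ± 4.63 CPM in Alternaria, 11.2 ± 0.643 CPM in mock and 11.7 ± 0.573 CPM in untreated leaves (SD, n = 3 each). The evening gene GI averaged 42.7 ± 4.97, 30.5 ± 3.08 and 93.1 ± 14.8 CPM, and LUX 2.98 ± 0.374, 2.92 ± 0.201 and 3.03 ± 0.407 CPM. Of 5 evening genes, 3 were higher and 0 lower at the threshold in Alternaria against mock. Against untreated, 3 were higher and 1 lower in Alternaria leaves, and 0 higher and 1 lower in mock leaves. Of 10 clock genes, 5 were higher and 3 lower at the threshold in Alternaria against mock, 5 higher and 4 lower in Alternaria against untreated, and 0 higher and 4 lower in mock against untreated. These counts stand beside 55.6% of all tested genes in Alternaria against mock, 64.9% in Alternaria against untreated and 29.3% in mock against untreated. The part of the clock or of the hour of harvest in the starch values was not tested.

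**Figure D4:**
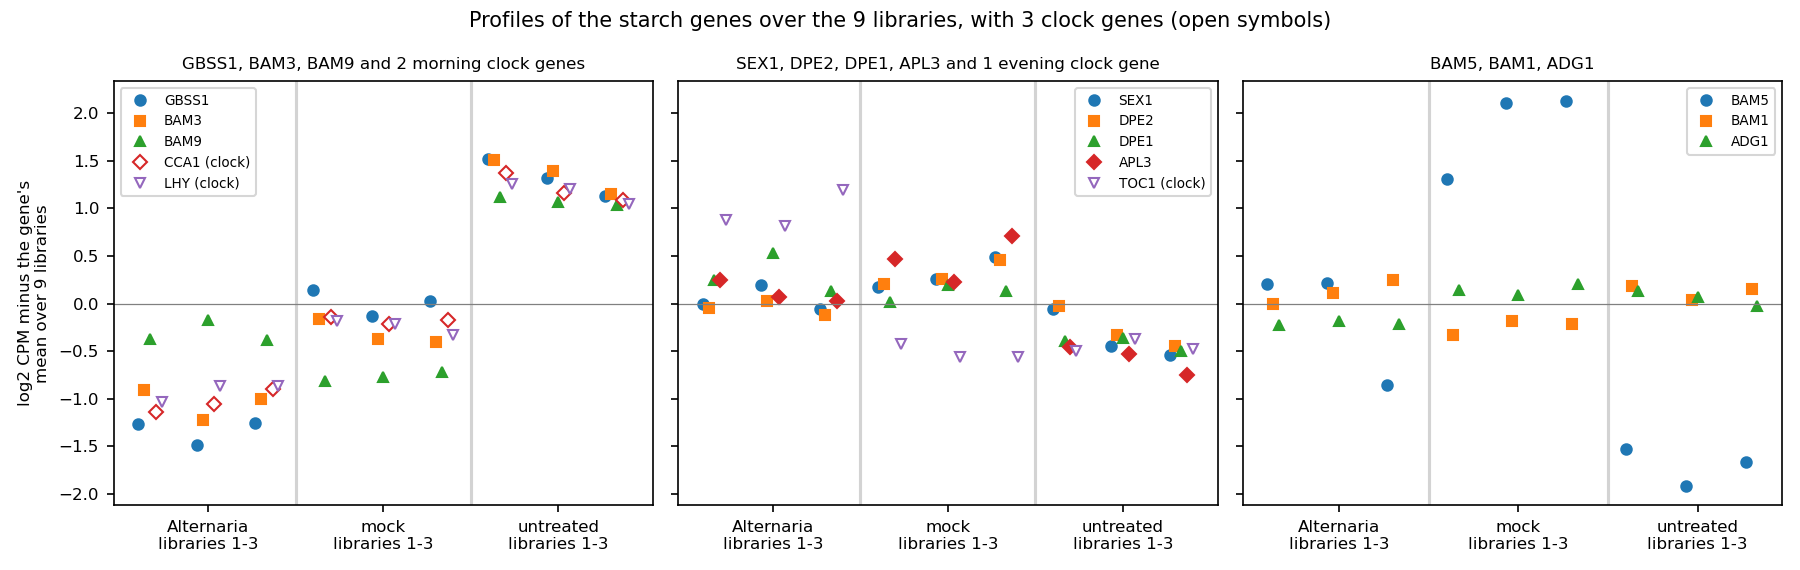
Log2 CPM of the starch genes and 3 clock genes (open symbols) in each of the 9 libraries, minus the gene's own mean over the libraries, with Alternaria, mock and untreated libraries from left to right. GBSS1 and BAM3 lie near CCA1 and LHY in all groups, BAM9 departs from them in mock leaves, SEX1 lies on DPE2, and BAM5 is alone in its span.

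By the same measure over all tested genes, the nearest profiles were listed for the 3 starch genes of widest range. For BAM5 they were PAP1 (AT1G56650), a MYB activator of anthocyanin synthesis, at 0.375, AT1G68600 at 0.506 and FUM2 (AT5G50950), the cytosolic fumarase, at 0.582. PAP1 averaged 15.3 CPM in Alternaria, 49.4 CPM in mock and 6.16 CPM in untreated leaves, and FUM2 243, 452 and 83.3 CPM. For GBSS1 they were AT3G14200 at 0.118, RXW8 (AT1G58520) at 0.133 and APR2 (AT1G62180), a sulfate assimilation enzyme, at 0.136. For BAM3 they were CP1 (AT5G49480) at 0.0873, UGT78D2 (AT5G17050), a flavonoid glucosyltransferase, at 0.132 and AT4G33440 at 0.148.

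The rest of the pathway was read from 45 other starch genes, all of which were tested. These genes and the tests were chosen with earlier results of these data known, which limits what their counts and p-values can show. In Alternaria against mock 29 fell and 6 rose, and their median log2 change was −0.35. Among all genes 26.1% were lower and 29.5% higher. In Alternaria against untreated 24 fell and 11 rose (median −0.27), beside 31.8% lower and 33.1% higher of all genes. In mock against untreated 11 rose and 7 fell (median −0.01), beside 15.1% higher and 14.1% lower. As shares, 77.8%, 77.8% and 40% of the 45 genes passed in these comparisons, in this order, beside 55.6%, 64.9% and 29.3% of all genes. Under upper-quartile scaling the first comparison had 3 rises and 33 falls and the second 9 and 29, while all genes then had 4937 rises and 8114 falls (6489 and 5752 with the main scaling) and 5549 and 9234 (7287 and 7001). Of the 45 genes, 18 overlap an annotated gene on the other strand, whose reads cannot be told apart from theirs without strand, and 7 loci carry no name in the annotation used here.

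In substrate supply 3 of 6 genes fell in Alternaria against mock and 0 rose: the plastid phosphoglucose isomerase PGI1 (log2 −0.58 ± 0.07, edgeR adjusted p = 1.2e-05), the plastid phosphoglucomutase PGM1 (−0.55 ± 0.09, adjusted p = 0.00018) and APL1 (−0.64 ± 0.07, adjusted p = 3.6e-06). APL1 averaged 106 ± 2.75 CPM in Alternaria, 165 ± 4.69 CPM in mock and 154 ± 8.11 CPM in untreated leaves. All 3 also fell against untreated, by 0.59 ± 0.07, 0.66 ± 0.09 and 0.55 ± 0.07. The 3 of 6 in Alternaria against mock stand beside 55.6% of all genes. In mock against untreated 1 of the 6 genes passed, beside 29.3% of all genes.

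In Alternaria against mock, where 55.6% of all genes passed, 8 of 10 genes of synthases and granule initiation fell and 0 rose. The soluble starch synthases SS1 (−0.83 ± 0.08, adjusted p = 2.4e-06), SS2 (−0.59 ± 0.06, adjusted p = 6.6e-06) and SS3 (−0.59 ± 0.07, adjusted p = 1.4e-05) were among them. Against untreated, where 64.9% of all genes passed, 6 fell and 1 rose. SS1 then fell by 0.89 ± 0.08, SS2 by 0.85 ± 0.07 and AT4G32190 by 0.70 ± 0.08. In mock against untreated 3 rose and 1 fell: AT5G39790 rose by 0.95 ± 0.09 (adjusted p = 1.6e-05), MFP1, a thylakoid protein that helps to place granule initiation, by 0.36 ± 0.07 (adjusted p = 0.0018) and SS4, the synthase of granule initiation, by 0.37 ± 0.09 (adjusted p = 0.01). Over all genes 29.3% passed in that comparison. The SS4 call was lost without untreated replicate 2 (0.32, adjusted p = 0.052).

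Of 7 branching and debranching genes, 5 fell in Alternaria against mock, where 55.6% of all genes passed. The falls were led by the isoamylase ISA2 (−0.86 ± 0.10, adjusted p = 1.6e-05), the limit dextrinase LDA (−0.83 ± 0.10, adjusted p = 9.9e-06) and the branching enzyme SBE2.2 (−0.66 ± 0.08, adjusted p = 1.5e-05). ISA3, a debranching enzyme of starch breakdown, was at 0.09 ± 0.10 (adjusted p = 0.45), and at −0.084 under upper-quartile scaling. Against untreated, however, ISA3 rose by 0.79 ± 0.10 in Alternaria leaves (adjusted p = 1.6e-05) and by 0.70 ± 0.10 in mock leaves (adjusted p = 0.00033), while LDA fell by 1.03 ± 0.10 and SBE2.2 by 0.69 ± 0.08 in Alternaria leaves. In mock against untreated ISA1 and SBE2.1 also rose, both by 0.25 (SE 0.09 and 0.08, adjusted p = 0.047 and 0.043). Both calls were lost on leaving out mock replicate 2 or 3 or untreated replicate 2 or 3, with adjusted p of 0.058 to 0.16, and that of SBE2.1 also without Alternaria replicate 1 (adjusted p = 0.05).

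All 7 genes of phosphate turnover and the granule surface passed in Alternaria against mock, 6 lower and 1 higher, beside 55.6% of all genes. The phosphoglucan phosphatase LSF2 fell by 1.17 ± 0.11 (adjusted p = 2.1e-06), and the loci AT3G55760 and AT1G42430 by 0.66 ± 0.08 and 0.66 ± 0.10. PWD, the second dikinase, which acts after SEX1, fell by 0.40 ± 0.10 (adjusted p = 0.0045). SEX4, the phosphatase that removes the phosphate set by these dikinases, averaged 69.8 ± 6.58 CPM in Alternaria, 85.7 ± 9.01 CPM in mock and 43.5 ± 2.85 CPM in untreated leaves (SD, n = 3 each). No SEX4 groups overlapped: it rose by 0.98 ± 0.10 in mock against untreated (adjusted p = 2.2e-05) and by 0.68 ± 0.10 in Alternaria against untreated (adjusted p = 4.3e-05), and fell by 0.30 ± 0.09 in Alternaria against mock (adjusted p = 0.017). The last call was lost without Alternaria replicate 3 (adjusted p = 0.085) or mock replicate 3 (adjusted p = 0.095). In mock against untreated AT3G55760 rose by 1.07 ± 0.08 and AT1G42430 fell by 0.76 ± 0.10, and PWD did not pass (0.10 ± 0.10, adjusted p = 0.48). In Alternaria against untreated AT1G42430 fell by 1.41 ± 0.10, LSF2 by 1.00 ± 0.11 and PWD by 0.30 ± 0.10 (adjusted p = 0.021). The PWD call was lost without a filter on low counts (adjusted p = 0.054) and without Alternaria replicate 1 (0.095), Alternaria replicate 3 (0.063) or untreated replicate 2 (0.091).

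Among 8 other amylases, AMY1, the secreted alpha-amylase, had the largest change of the 8 in both Alternaria comparisons. It stood at 12.2, 15.1 and 17.0 CPM in Alternaria leaves, 1.69, 1.96 and 2.45 CPM in mock leaves and 1.63, 1.90 and 1.63 CPM in untreated leaves. Every Alternaria library lay above every other library. AMY1 rose by 2.85 ± 0.17 against mock (adjusted p = 4.8e-08) and by 3.09 ± 0.18 against untreated (adjusted p = 1.8e-08). BAM4, a plastid family member without catalytic activity, rose by 0.67 ± 0.10 against mock (adjusted p = 6.5e-05), and BAM6 fell by 1.07 ± 0.14 (adjusted p = 2.9e-05). Against untreated BAM8, a nuclear family member, fell by 0.91 ± 0.10 and BAM6 by 0.87 ± 0.14. AMY3, the plastid alpha-amylase, was at 124 ± 4.99 CPM in Alternaria, 155 ± 2.25 CPM in mock and 102 ± 8.61 CPM in untreated leaves. It fell by 0.33 ± 0.07 in Alternaria against mock (adjusted p = 0.0018), and rose by 0.60 ± 0.07 in mock against untreated (adjusted p = 0.00011) and by 0.27 ± 0.07 in Alternaria against untreated (adjusted p = 0.0053). The last call was lost under upper-quartile scaling (0.08, adjusted p = 0.31). BAM7, a nuclear family member, and AMY2 fell in mock against untreated, by 0.51 ± 0.11 and 0.50 ± 0.12.

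Of 7 genes of export and phosphorolysis, 3 rose and 4 fell in Alternaria against mock, where 55.6% of all genes passed. GPT2, the plastid glucose 6-phosphate translocator known to be induced by sugars, stood at 99.2, 73.0 and 144 CPM in Alternaria leaves, 15.4, 13.9 and 11.0 CPM in mock leaves and 33.4, 30.8 and 20.8 CPM in untreated leaves. No groups overlapped, and mock was lowest, unlike BAM5. GPT2 rose by 2.97 ± 0.24 in Alternaria against mock (adjusted p = 4.9e-07) and by 1.90 ± 0.23 in Alternaria against untreated (adjusted p = 1.1e-05), and fell by 1.08 ± 0.24 in mock against untreated (adjusted p = 0.0052). MEX1, the maltose exporter of the chloroplast, fell by 0.71 ± 0.11 in Alternaria against mock (adjusted p = 0.00015) and by 0.44 ± 0.12 in Alternaria against untreated (adjusted p = 0.0052), and did not pass in mock against untreated (0.27 ± 0.11, adjusted p = 0.087). The plastid and cytosolic glucan phosphorylases PHS1 and PHS2 rose in mock against untreated by 0.72 ± 0.09 (adjusted p = 9.7e-05) and 0.75 ± 0.12 (adjusted p = 0.00079). PHS2 fell by 0.48 ± 0.12 in Alternaria against mock (adjusted p = 0.0047), and PHS1 rose by 0.47 ± 0.08 in Alternaria against untreated (adjusted p = 0.00034).

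**Figure D5:**
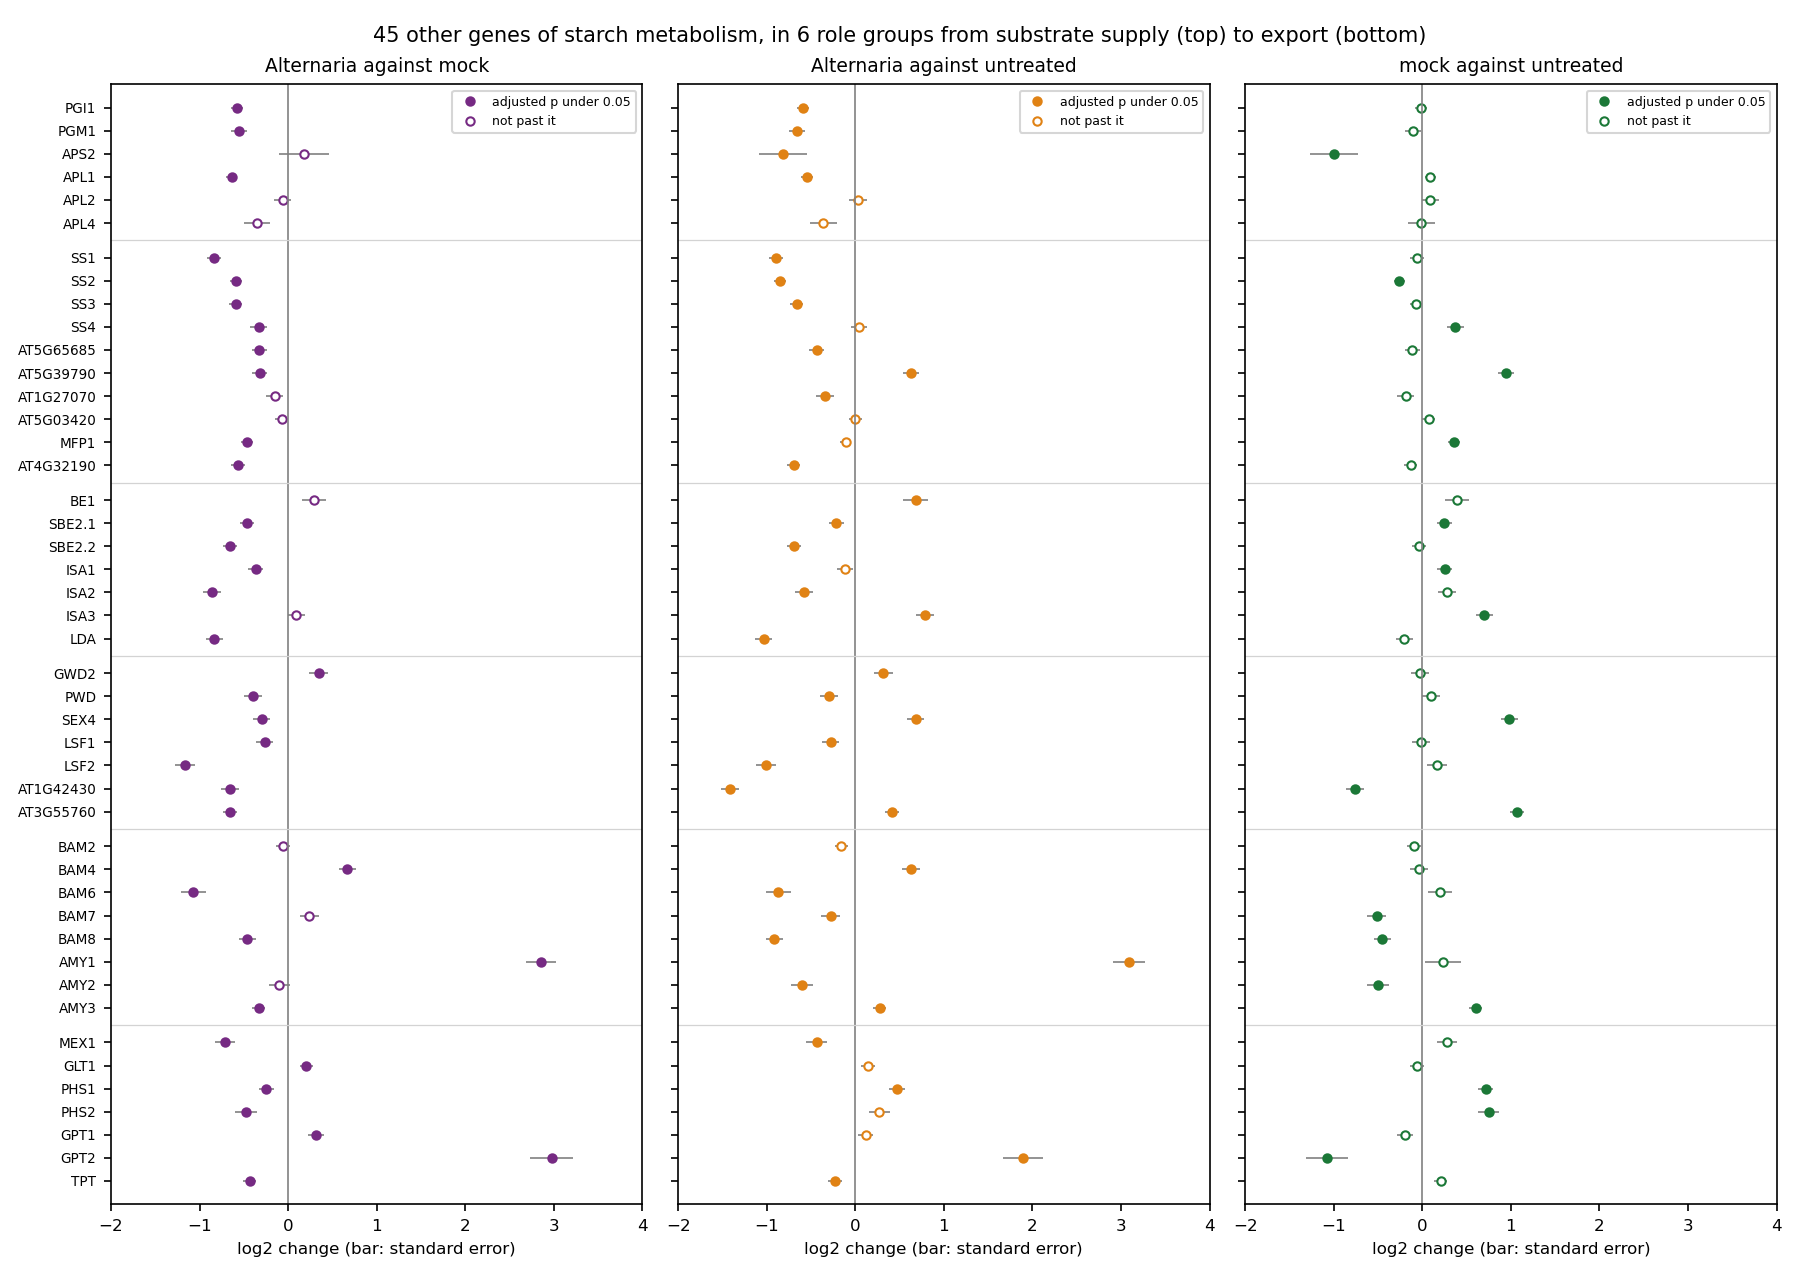
Log2 change (points) and standard error (bars) of 45 other starch genes in 6 role groups, with the Alternaria leaves against each of the others in the left and middle panels and mock leaves against untreated ones on the right. Filled points have an edgeR adjusted p under 0.05: 29 lie below 0 and 6 above in the first comparison, where AMY1 (2.85) and GPT2 (2.97) stand out, and 7 below and 11 above in the last.

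The comparisons with untreated leaves share the same 3 untreated libraries, and those with mock leaves the same 3 mock libraries.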

How the data were processed

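Polyadenylated RNA from 3 µg of total RNA was sequenced from 3 libraries each of Alternaria, mock and untreated leaves, per the labels' protocols. Per the submitters' processing notes, FastQC, TopHat2 2.0.12, HTSeq and DESeq2 1.8.2 were used with TAIR10; whether counting used strand is not given there. Each library has a file of whole-number counts per gene, deposited by the authors and not normalized. The authors' deposited tables hold log2 fold changes and p-values, and their sign was set from the counts.

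Lines that name no gene (7.73 to 11.2% of a library's counts) were left out. Counts were fitted with edgeR 4.0.16 in R 4.3.3 (filterByExpr with a minimum count of 10, TMM scaling, 9 libraries in 1 model, 6 residual degrees of freedom). The quasi-likelihood F test was adjusted with Benjamini-Hochberg over 22019 genes at 0.05, and SE is the absolute log2 change over √F. P-values set a difference between group means against the spread of these libraries within groups. Log2 CPM for profiles used a prior count of 2. Transcript lengths and upstream windows came from TAIR10.1, whose loci match the count files' IDs.

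The 10 genes, the 45 other starch genes, the marker and clock lists and the tests were chosen with earlier results of these data known. The extension of the window past the start was chosen after the sequences were seen. Of the 45, those named are PWD, SEX4, MEX1, PGM1, AMY3, ISA3 and GPT2, and up to 3 genes per role and comparison past the threshold with the largest change and a mean of at least 5 CPM. The procedure was tested on simulated data. Alternatives were RLE and upper-quartile scaling, no filter, organelle genes left out, 6-library fits, a replicate block, DESeq2 1.42.0, limma-voom (limma 3.58.1) and each library left out in turn. Figures and tables were made with matplotlib 3.10.9, pandas 2.3.3 and numpy 2.4.6.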

Additional observations from a re-analysis of the deposited data

How the results depend on the processing

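Over 1530 alternative values for 90 changes of single genes, 1493 kept their direction and their side of the threshold (or, for the 10 genes, stayed within 1 SD), 19 lost their call, 16 moved and 2 turned their direction, beside BAM1 in Alternaria against untreated, which lay near 0 throughout the leave-outs (−0.063 to 0.059). Upper-quartile scaling gave the 16 moved values, all of them changes of the 10 genes in the Alternaria comparisons. It also turned ISA3 in Alternaria against mock to −0.084 and left 3 rises among the other starch genes there. PGM1 in mock against untreated, at −0.11, ranged from −0.19 to 0.0084 over the leave-outs, and was above 0 without untreated replicate 1. Leaving out each library in turn gave 2119 (without untreated replicate 2) to 3513 rises over all genes in mock against untreated, where all 9 libraries gave 3332. Of the 45 other starch genes it left 30 to 36 past the threshold in Alternaria against mock, 31 to 36 in Alternaria against untreated and 14 to 20 in mock against untreated. ISA1 in mock against untreated also lost its call under upper-quartile scaling (adjusted p = 0.061). The groups share replicate numbers, but deviations of same-numbered libraries correlated at only −0.07 to 0.03 over all genes. These values show no broad shared effect and cannot tell whether same-numbered plants were handled together. With a replicate block, 35 other starch genes passed in Alternaria against mock, 34 in Alternaria against untreated and 17 in mock against untreated, and ISA1 lost its call in the last (adjusted p = 0.058). With 3 libraries per group, small changes can be missed.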
